A study of Mus musculus with 6 samples.

Results

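The Klf genes Klf2, Klf3, Klf4, Klf5, Klf6, Klf7, Klf9, Klf10, Klf13 and Klf15 encode Krüppel-like zinc-finger transcription factors, and all 10 were found by symbol among the 23725 genes of the expression table. RNA was sequenced from colonic epithelial cells that had been enriched on a Percoll gradient, in 3 knockout and 3 wild-type libraries. The knockout mice (Nr3c1IEC-/-, genotype B6-Cg-Nr3c1-Vil-Cre/ERT2) lost Nr3c1, the gene of the glucocorticoid receptor, through a tamoxifen-inducible Cre driven by the villin promoter, which is active in intestinal epithelium. The wild-type mice shared the C57BL/6J background, and the labels give tamoxifen on 5 consecutive days and sampling 7 days after the first injection for both groups. The labels give neither the age of the mice nor whether the wild-type mice carried the Cre transgene, nor do they say that the libraries came from separate animals, so p-values measure only the spread between these libraries, which may be technical.

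Krüppel-like factors bind GC-rich and CACCC sequences through a conserved zinc-finger domain at the C-terminal end, and the rest of the protein decides whether a member activates or represses. In the gut Klf4 is known from differentiated cells near the surface and from goblet cells, and Klf5 from dividing crypt cells. Klf9 and Klf15 are known targets of the glucocorticoid receptor in several tissues, and Klf2, Klf4 and Klf6 are also induced rapidly by growth factors or stress.

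The libraries held 10089313 to 12030844 reads assigned to genes. Nr3c1 had 144.7, 123.1 and 174.7 normalized reads in the libraries labelled knockout, against 1119.8 and 967 in those labelled wild type replicates 1 and 2 and 197 in the library labelled wild type replicate 3, which goes against its label at this gene. Its log2 change was -2.03 (SE 0.60, limma adjusted p = 0.0372), and omitting any library other than that one ended the call, with limma adjusted p up to 0.125. With that library omitted the log2 change was -2.82 (limma adjusted p = 0.000731). The 10 epithelial markers summed to 281642 to 320883 in the knockout and 258566 to 301724 in the wild type, and 2 of them rose (Krt20 and Vil1) and 2 fell (Cdx1 and Cdx2). Among markers of other cells those of myeloid cells mostly rose, and those of the other types were less uniform. Of all genes tested 15% rose and 15.4% fell. Of 11 myeloid markers 8 rose and 0 fell, and their summed level was 3256 to 8357 in the knockout and 603 to 1210.3 in the wild type. S100a8 had 599 to 2129 in the knockout and 11.7 to 20.5 in the wild type. S100a9 had 377 to 2330 in the knockout and 16.4 to 18.6 in the wild type. The 3 that did not pass were Lyz2, Adgre1 and Cd68 (limma adjusted p = 0.216, 0.173 and 0.127). Of 10 markers listed for lymphocytes 2 could be tested and both rose, but these were Ptprc and Cd52, which myeloid cells express too. They made up most of the summed level of 174 to 357 in the knockout and 52.8 to 98.4 in the wild type. The markers of T and B cells had few reads, and each one found had the higher mean in the knockout. Cd3d was the most level, at 6.40 ± 1.11 in the knockout and 5.80 ± 1.52 in the wild type. Cd3e had 6.74 ± 0.57 in the knockout and 3.53 ± 1.26 in the wild type. The groups were apart for Cd3e and Cd79b and overlapped for the other T and B cell markers. Of 10 stromal and muscle markers 2 of 7 tested rose and 5 were not called. Their sums overlapped (943 to 2906 in the knockout, 593 to 1191 in the wild type). The part of these cells in the results was not tested, and in bulk RNA fewer cells of a type and less RNA per cell cannot be told apart.

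The sequences just upstream of the start sites are shown for the 5 Klf genes that fell and had little annotated exon in the window, and for Klf15. Each line holds the 250 bases before the RefSeq start, 5′ to 3′ on the gene's strand, in GRCm38.p6. The windows are chr8:72318812-72319061 (+ strand) for Klf2, chr4:55532476-55532725 (- strand) for Klf4, chr7:63938916-63939165 (- strand) for Klf13, chr13:5861239-5861488 (+ strand) for Klf6, chr19:23140976-23141225 (+ strand) for Klf9 and chr6:90462326-90462575 (+ strand) for Klf15. The last 29 bases of the Klf2 window and 7 bases of the Klf6 window are annotated as exon by GENCODE, and the Klf15 window lies inside the span that RefSeq gives the gene. Capitals mark GC boxes (GGGCGG on either strand) and E-boxes (CACGTG).
Klf2: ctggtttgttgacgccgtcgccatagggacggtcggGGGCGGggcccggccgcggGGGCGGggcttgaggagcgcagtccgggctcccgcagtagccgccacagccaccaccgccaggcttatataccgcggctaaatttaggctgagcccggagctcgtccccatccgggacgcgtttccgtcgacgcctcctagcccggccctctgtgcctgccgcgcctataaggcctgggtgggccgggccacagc
Klf4: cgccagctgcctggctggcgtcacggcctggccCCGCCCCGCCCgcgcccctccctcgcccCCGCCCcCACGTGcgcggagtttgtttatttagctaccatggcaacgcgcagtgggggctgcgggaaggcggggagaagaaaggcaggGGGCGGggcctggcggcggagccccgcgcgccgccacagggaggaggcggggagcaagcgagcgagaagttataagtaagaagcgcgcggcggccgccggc
Klf13: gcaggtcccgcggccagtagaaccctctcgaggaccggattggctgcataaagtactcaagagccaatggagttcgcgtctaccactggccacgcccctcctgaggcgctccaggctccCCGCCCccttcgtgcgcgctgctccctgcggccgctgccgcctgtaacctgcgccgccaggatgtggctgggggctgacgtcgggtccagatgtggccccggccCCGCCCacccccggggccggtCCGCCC
Klf6: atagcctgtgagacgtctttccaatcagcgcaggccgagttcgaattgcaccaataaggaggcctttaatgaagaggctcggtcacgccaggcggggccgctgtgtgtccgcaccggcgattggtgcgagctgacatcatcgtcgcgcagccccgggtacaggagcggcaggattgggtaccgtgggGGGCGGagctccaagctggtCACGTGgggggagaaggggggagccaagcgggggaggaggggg
Klf9: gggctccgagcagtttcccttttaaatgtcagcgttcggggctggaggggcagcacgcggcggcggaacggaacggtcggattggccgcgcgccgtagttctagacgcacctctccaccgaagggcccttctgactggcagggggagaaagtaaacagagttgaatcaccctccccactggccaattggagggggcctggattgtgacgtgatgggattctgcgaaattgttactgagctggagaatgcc
Klf15: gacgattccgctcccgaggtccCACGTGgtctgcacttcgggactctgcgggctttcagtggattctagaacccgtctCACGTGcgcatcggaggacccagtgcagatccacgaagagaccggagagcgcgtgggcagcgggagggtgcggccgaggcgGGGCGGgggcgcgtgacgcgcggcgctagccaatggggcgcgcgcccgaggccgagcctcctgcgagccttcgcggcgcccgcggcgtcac

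Promoters were given for 8 of the 10 genes, the exceptions being Klf5 and Klf10. GC boxes were in 7 of the 8 windows, against 32.7% of 32817 windows of the same length over all genes, and the 8 windows were 59.2% to 78.4% G and C, against a median of 52.4%. E-boxes were in 3 of 8, against 6.02%, with 2 in Klf15 and 1 each in Klf4 and Klf6. The other motifs searched on both strands were CACCC (6 of 8, against 52%), TGACG (5 of 8, against 17.7%), CCAAT (4 of 8, against 33.8%) and the glucocorticoid receptor half-site AGAACA (0 of 8, against 16.1%). The receptor's palindrome was in 0 of 8, against 0.387%. A base could be counted in more than 1 motif. These are matches of letters in short windows and say nothing about binding.

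Most of the Klf genes were lower in the knockout. Of the 10 genes 9 passed the filter on low values, and of these 6 fell (Klf2, Klf3, Klf4, Klf6, Klf9 and Klf13), 0 rose and 3 did not pass the test (Klf5, Klf7 and Klf10). Among all 12837 genes tested 30.5% changed, 15.4% downward and 15% upward. The median log2 change was -0.61 over the 9 Klf genes and 0.01 over all genes tested. Among the 9 Klf genes tested, the same 6 had all 3 knockout libraries below all 3 wild-type libraries, a pattern shown by 25.5% of all genes tested. Of the 9, 0 had all knockout libraries above all wild-type libraries, against 25.2%. None of the 9 rose at an unadjusted p under 0.05 in limma, and 0 rose by edgeR or DESeq2. The number lowered was 6 by edgeR, against 15.6% of all genes, and 7 by DESeq2, against 15.7%. Changes were called with limma at an adjusted p under 0.05 on log2(value + 1), and log2 changes are knockout minus wild type on that scale.

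**Figure D1:**
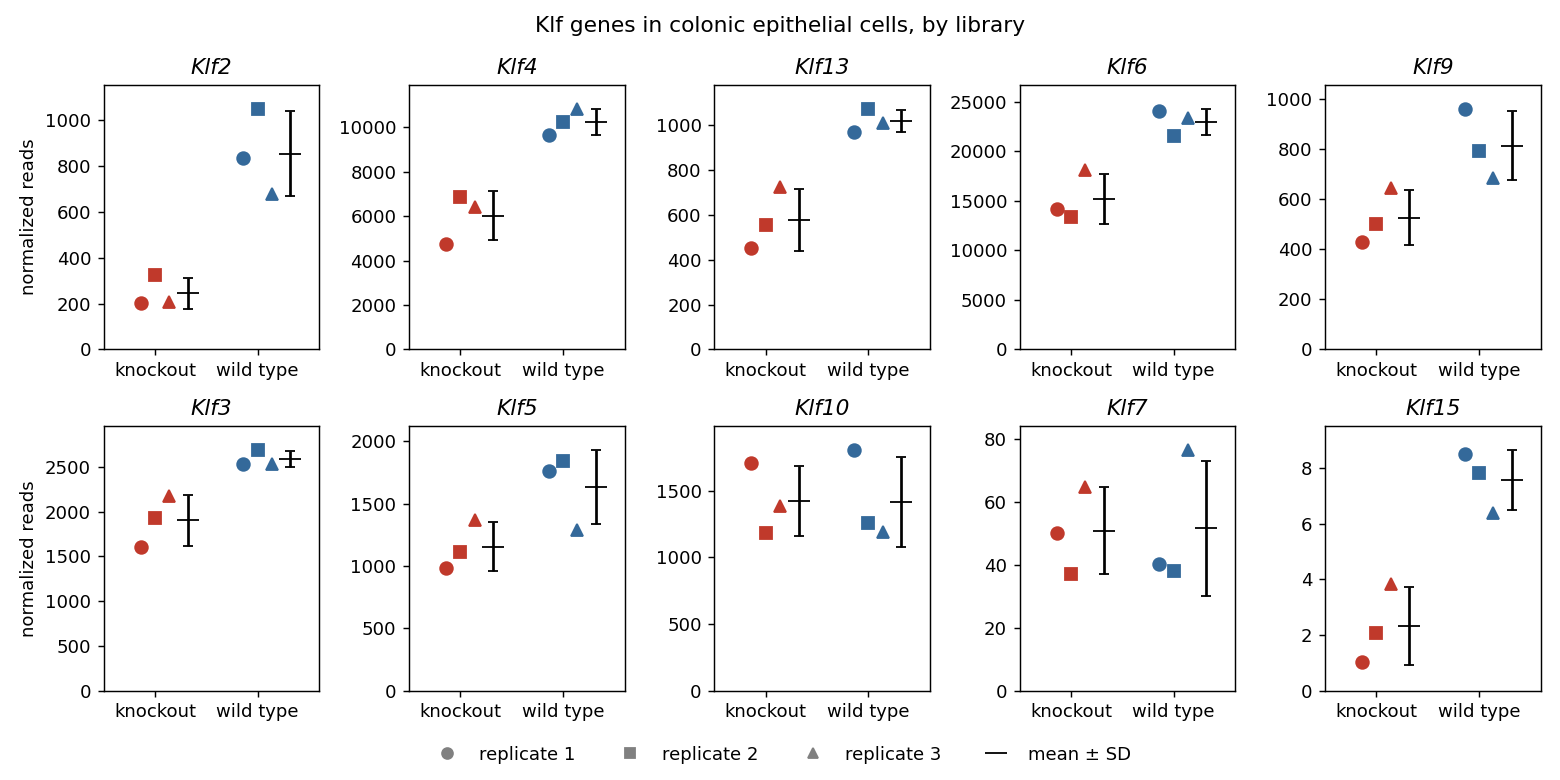
Normalized reads of each Klf gene (y axis, linear from 0) in the 3 knockout and the 3 wild-type libraries, with the replicate shown by marker shape and the mean ± SD beside each group. The groups are apart for Klf2, Klf4, Klf13, Klf6, Klf9, Klf3 and Klf15 and overlap for Klf5, Klf10 and Klf7.

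Klf2 had the most negative log2 change of the tested members. Klf2 (Entrez 16598, GRCm38 chromosome 8, 72319062 to 72321654), which holds lymphocytes and endothelial cells in a quiescent state, had 203, 324 and 207 normalized reads in the knockout libraries, against 837, 1050.2 and 678 in the wild-type libraries. Every knockout library was far below the lowest wild-type library. Its mean was 245 ± 68.5 in the knockout and 855 ± 187 in the wild type (SD, n = 3 each), which is 28.6% of the wild-type mean (log2 change -1.81, SE 0.23, limma adjusted p = 0.00191). The change stayed between -2.03 and -1.65 when any 1 library was left out, with limma adjusted p of at most 0.0124, and was -1.97 when the library labelled wild type replicate 3 was omitted. Defining markers of endothelial cells, a known site of Klf2, were low. The 8 endothelial markers summed to 20.7 to 43 in the knockout and 46 to 48.8 in the wild type, most of it from the 2 that could be tested, and neither of these passed. Pecam1 had 7.34, 8.28 and 15.3 in the knockout, against 22.3, 27.4 and 18.2 in the wild type (limma adjusted p = 0.055). Vwf had 19.9, 10.3 and 21.0 in the knockout, against 24.4, 17.6 and 29.1 in the wild type (limma adjusted p = 0.336). Cdh5, Kdr, Tie1, Tek and Emcn lay the other way on a few reads, at 0 to 5.24 in the knockout and 0 to 1.06 in the wild type, with overlapping groups, and Cldn5 was at 0 in every library. The part of endothelial cells in the fall of Klf2 was not tested.

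Klf4, the factor linked to differentiation and cell cycle arrest in the gut, was lower by a smaller factor but from a high level. Klf4 (Entrez 16600, chromosome 4, 55527137 to 55532475) had 4763, 6870.5 and 6423 normalized reads in the knockout libraries, against 9645, 10256 and 10825 in the wild-type libraries. The groups did not overlap, and the library labelled wild type replicate 3 had the highest value. The mean was 6019 ± 1110.1 in the knockout and 10242 ± 590.1 in the wild type (log2 change -0.78, SE 0.16, limma adjusted p = 0.011). Klf5, which promotes division of crypt cells, lay in the same direction without passing the test. Klf5 (Entrez 12224, chromosome 14, 99298691 to 99313412) had 985, 1115 and 1370.0 in the knockout, against 1766, 1839 and 1292 in the wild type. Knockout replicate 3 was above the library labelled wild type replicate 3, so the groups overlapped. The log2 change was -0.49 (SE 0.18, limma adjusted p = 0.0683), and the unadjusted 95% interval of the ratio ran from 0.535 to 0.943. Klf5 passed the test when knockout 3 was omitted (limma adjusted p = 0.0491), when the library labelled wild type replicate 3 was omitted (limma adjusted p = 0.0305), with quantile normalization (limma adjusted p = 0.0467) and with DESeq2 (adjusted p = 0.0481). The log2 ratio of Klf4 to Klf5 within a library, a pair known to act in opposite ways on proliferation, was 2.27, 2.62 and 2.23 in the knockout and 2.45, 2.48 and 3.07 in the wild type. These ranges overlapped, and the difference of -0.29 gave an exact permutation p = 0.3 (two-sided), where 0.1 is the smallest that 3 against 3 libraries allow. The difference was -0.09 (exact permutation p = 0.6) when the library labelled wild type replicate 3 was omitted.

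Klf13 and Klf9 both fell, by a smaller factor than Klf2. Klf13 (Entrez 50794, chromosome 7, 63886351 to 63938915) had 451, 555 and 726 normalized reads in the knockout libraries, against 971, 1072 and 1011 in the wild-type libraries. The lowest wild-type library was above every knockout library, and the wild-type values were close together. Its mean was 577 ± 139 in the knockout and 1018 ± 50.6 in the wild type (log2 change -0.84, SE 0.17, limma adjusted p = 0.0102). Klf9 (Entrez 16601, chromosome 19, 23141226 to 23168129), a known target of the glucocorticoid receptor, had 428, 502 and 645 in the knockout, against 958, 792 and 685 in the wild type. The gap between the groups was narrow, from 645 in knockout replicate 3 to 685 in the library labelled wild type replicate 3. Klf9 averaged 525 ± 111 in the knockout and 812 ± 138 in the wild type (log2 change -0.64, SE 0.18, limma adjusted p = 0.0358). Omitting knockout 1, knockout 2, wild type 1 or wild type 2 ended the call of Klf9 (limma adjusted p = 0.0725, 0.0757, 0.126 and 0.0978), while it held when the library labelled wild type replicate 3 was omitted (limma adjusted p = 0.0371).

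Klf6 and Klf3, both widely expressed, fell by less than Klf2. Klf6 (Entrez 23849, chromosome 13, 5861489 to 5870393), an early response gene, had the most reads of the members, with 14183, 13370.5 and 18110.2 in the knockout libraries, against 24046, 21524 and 23353 in the wild-type libraries. The groups did not overlap, and the knockout mean was 66.3% of the wild-type mean (log2 change -0.61, SE 0.17, limma adjusted p = 0.0313). Klf3 (Entrez 16599, chromosome 5, 64803521 to 64832901), a repressor that acts with CtBP proteins, had 1610.2, 1929 and 2179 in the knockout, against 2531, 2686 and 2534 in the wild type. Its groups did not overlap either, and the knockout mean was 73.8% of the wild-type mean (log2 change -0.45, SE 0.13, limma adjusted p = 0.0348). Leaving out any library other than knockout replicate 3 ended both calls. With knockout 1, knockout 2, wild type 1, wild type 2 and the library labelled wild type replicate 3 omitted in turn, the limma adjusted p of Klf6 was 0.0704, 0.0718, 0.108, 0.0817 and 0.0676, and that of Klf3 was 0.0604, 0.0597, 0.0973, 0.118 and 0.0724.

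**Figure D2:**
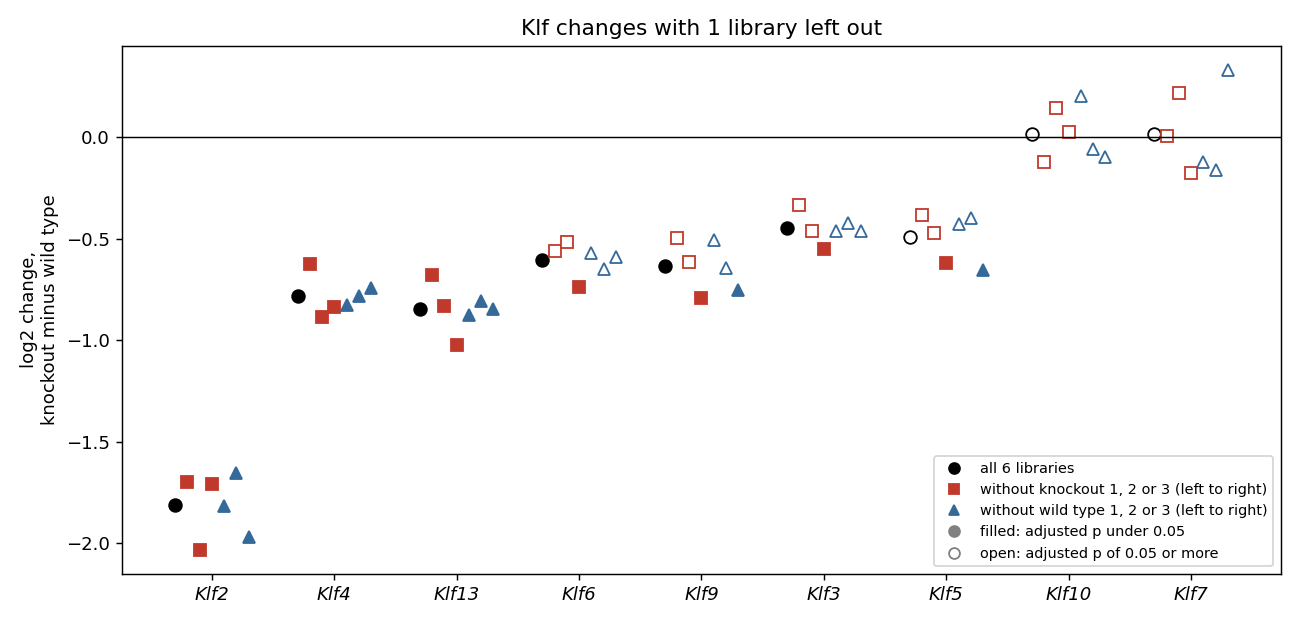
Log2 change of each tested Klf gene, knockout minus wild type, with all 6 libraries and with 1 library left out, filled where the limma adjusted p was under 0.05. Klf2, Klf4 and Klf13 are filled throughout, Klf6, Klf9 and Klf3 are open without most libraries, and Klf10 and Klf7 lie on both sides of 0.

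The count of lowered Klf genes was 3 when knockout 1, knockout 2, wild type 1 or wild type 2 was omitted. It was 7 when knockout 3 was omitted and 5 when the library labelled wild type replicate 3 was. Klf2, Klf4 and Klf13 were among them each time. Over all genes 3910 changed, against 1923 when wild type 1 was omitted and 1960 when wild type 2 was. With the mean level of the immune, endothelial and stromal markers as a covariate 0 of the 9 Klf genes passed (limma adjusted p 0.456 to 0.996), and 23 of all genes did. The log2 change was then -1.11 for Klf2, -0.43 for Klf4, -0.58 for Klf13, -0.60 for Klf6, -0.07 for Klf9, -0.20 for Klf3 and -0.02 for Klf5. This marker level was 7.82, 6.51 and 7.04 in the knockout and 4.79, 5.37 and 5.82 in the wild type, so marker level and genotype can hardly be told apart in such a fit.

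Klf10 and Klf7 gave no difference past the test. Klf10 (Entrez 21847, chromosome 15, 38291464 to 38300711), a gene induced early by TGF-beta, had 1703, 1179 and 1385 normalized reads in the knockout libraries, against 1802, 1257 and 1188 in the wild-type libraries. In both groups replicate 1 was the highest. The 95% interval of the knockout to wild-type ratio was 0.738 to 1.38 (log2 change 0.02, SE 0.20, limma adjusted p = 0.957). Klf7 (Entrez 93691, chromosome 1, 64029448 to 64122345), better known from neurons, was low, with 50.3, 37.2 and 64.9 in the knockout, against 40.3, 38.1 and 76.5 in the wild type. Its interval was wider, 0.591 to 1.73 (log2 change 0.02, SE 0.33, limma adjusted p = 0.976). Exons of the antisense genes Gm13748 and Gm26649 overlap those of Klf7, and the libraries were not stranded, so their reads cannot be told apart.

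Klf15, like Klf9 a known target of the glucocorticoid receptor, was nearly absent from all libraries. Klf15 (Entrez 66277, chromosome 6, 90461043 to 90491803) had 1, 2 and 4 recovered reads in the knockout libraries, against 8, 8 and 7 in the wild-type libraries, too few to pass the filter. The groups did not overlap. The 7 knockout and 23 wild-type reads gave a knockout to wild-type ratio of 0.314, with an exact 95% binomial interval of 0.114 to 0.756 that covers counting error only. With no filter on low values the log2 change of Klf15 was -1.45 (SE 0.44, limma adjusted p = 0.0473 over 18057 genes).

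**Figure D3:**
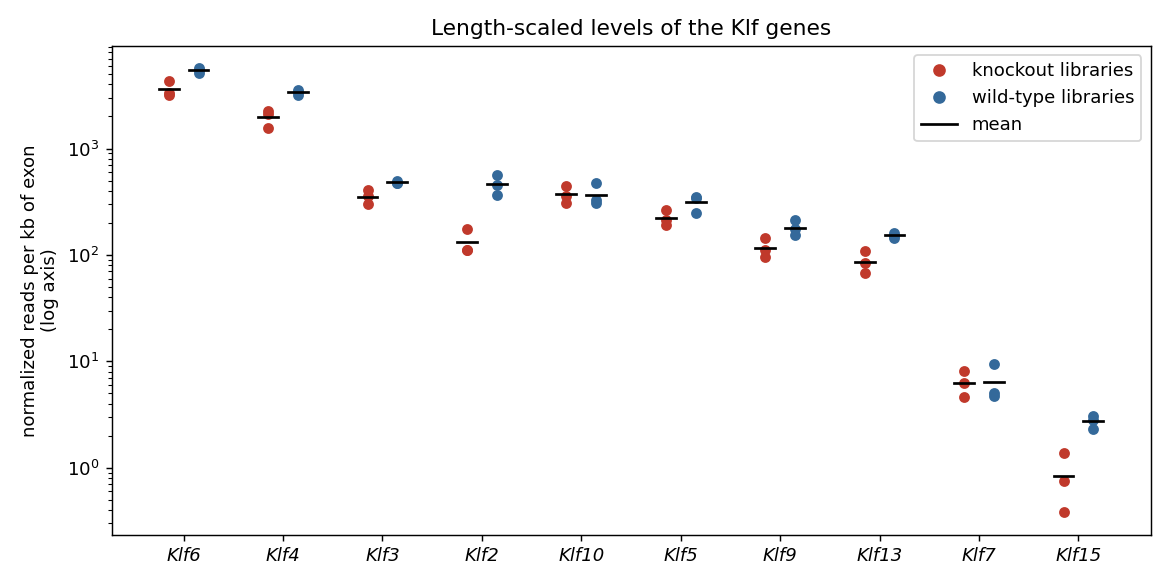
Normalized reads per kb of annotated exon (log axis) for each Klf gene in knockout and wild-type libraries, ordered by the wild-type mean. Klf6 and Klf4 stand above the rest in both groups, and Klf2 has the widest gap between the groups among the members with more than a few reads.

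Scaled to exon length, Klf6 and Klf4 made up most of the Klf RNA. The levels per kb are normalized reads divided by the length of the GENCODE exons, which may differ from those the authors counted on. Klf6 had 3603 ± 599.9 per kb in the knockout and 5438 ± 308 in the wild type, and Klf4 had 1987 ± 366 in the knockout and 3381 ± 195 in the wild type. In the knockout the order of the means went on with Klf10 (371), Klf3 (354), Klf5 (222), Klf2 (133), Klf9 (117), Klf13 (86.5), Klf7 (6.31) and Klf15 (0.84). In that order the libraries of neighbours overlapped between Klf10 and Klf3, Klf2 and Klf9, and Klf9 and Klf13. In the wild type it went on with Klf3 (479.7), Klf2 (463), Klf10 (369.6), Klf5 (314), Klf9 (181), Klf13 (153), Klf7 (6.42) and Klf15 (2.75). There the libraries overlapped between Klf3 and Klf2, Klf2 and Klf10, Klf10 and Klf5, and Klf9 and Klf13. Klf2 thus stood at place 6 in the knockout and at place 4 in the wild type. Klf10 stood at place 3 in the knockout and at place 5 in the wild type, and no member moved by more than 2 places. The 10 members together summed to 6881 ± 851 per kb in the knockout and 10788 ± 202 in the wild type. Klf6 held 52.3% ± 4.30 of that sum in the knockout and 50.4% ± 1.94 in the wild type, and Klf2 held 1.95% ± 0.61 in the knockout and 4.30% ± 1.0 in the wild type.

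The genes whose pattern over the 6 libraries was most like that of Klf2 were found by the root mean square difference of their centred log2 values. They were Shisa2 (0.0762), Slc2a10 (0.0811), Mpst (0.11), Prkag2 (0.124) and Tmem38a (0.136). The median was 0.972 over the 10270 genes compared. These had a mean of at least 50, and predicted or unnamed genes were passed over. Shisa2, for example, had 76.5, 115 and 85.9 normalized reads in the knockout, against 338, 389 and 267 in the wild type. Slc2a10, a glucose transporter gene, had 30.4, 54.8 and 33.4 in the knockout, against 138, 154 and 102 in the wild type. Like Klf2, both were highest among the knockout libraries in replicate 2 and lowest among the wild-type libraries in the library labelled replicate 3. This likeness follows from the way the genes were chosen and is no separate result.

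Among the remaining Klf genes Klf11 fell. Of 7 other Klf genes 4 could be tested, 1 fell and 0 rose, against 15.4% of all genes lowered and 15% raised. Klf11, a close relative of Klf10 that is also induced by TGF-beta, had 183, 235 and 235 normalized reads in the knockout libraries, against 987, 923 and 566 in the wild-type libraries. The groups were far apart, and the log2 change was -1.89 (SE 0.22, limma adjusted p = 0.00158), while that of Klf10 was 0.02. Klf12 had 39.6 ± 15.5 in the knockout and 53.7 ± 10.5 in the wild type, and Klf8 had 11.5 ± 5.86 in the knockout and 16.9 ± 3.17 in the wild type, without passing (limma adjusted p = 0.263 and 0.302). Of the 9 Sp genes, which share the zinc-finger domain, 4 could be tested, 2 fell and 0 rose, against the same shares. Sp4 had 17.8, 26.9 and 21 in the knockout, against 86, 88 and 56.5 in the wild type (log2 change -1.76, SE 0.27, limma adjusted p = 0.00407). Sp3 fell less, with 665 ± 61.5 in the knockout and 896 ± 44.8 in the wild type (log2 change -0.43, limma adjusted p = 0.0232), and Sp1 had 915 ± 129.9 in the knockout and 1037 ± 48 in the wild type (limma adjusted p = 0.273). Klf11 and Sp4 stayed called without any 1 library, while Sp3 did not pass when wild type 1 or wild type 2 was omitted (limma adjusted p up to 0.0948).

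**Figure D4:**
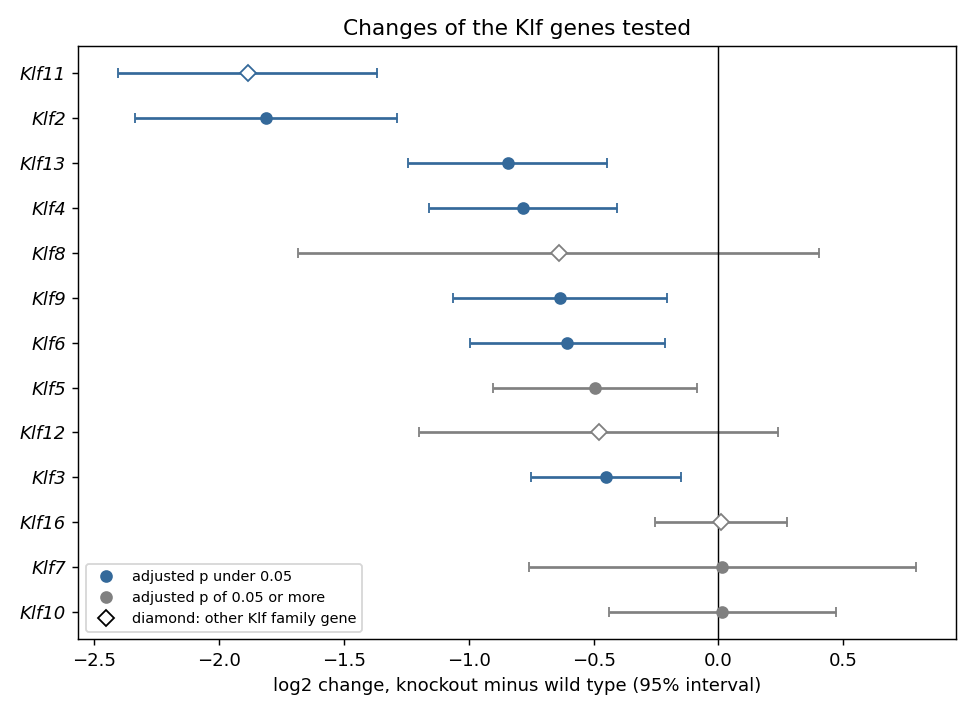
Log2 change with its 95% interval, knockout minus wild type, for the 13 tested genes of the Klf family, with diamonds for family genes other than the 10 members. Klf11 and Klf2 lie near -1.9 and -1.8 with intervals apart from that of Klf10, which includes 0.

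Genes that act with or on Klf proteins changed at a rate near that over all genes. Of 11 corepressors and coactivators 2 fell and 0 rose, against 15.4% of all genes lowered and 15% raised. Their median log2 change was -0.03. Hdac1, a histone deacetylase, had 1305 ± 139 normalized reads in the knockout and 1892 ± 254 in the wild type (log2 change -0.53, limma adjusted p = 0.0218). The acetyltransferase gene Crebbp had 219 ± 28.5 in the knockout and 303 ± 23.2 in the wild type (log2 change -0.47, limma adjusted p = 0.0389), and Sin3b had 837 ± 87.7 in the knockout and 670.4 ± 3.71 in the wild type (limma adjusted p = 0.0639). Hdac1 and Crebbp were never both called with 1 library left out, since 1 gene of the list fell on omission of any library other than wild type 1 and 0 on omission of wild type 1. Crebbp had a limma adjusted p = 0.0568 when the library labelled wild type replicate 3 was omitted. Sin3b rose when knockout 3 was omitted (limma adjusted p = 0.0493). Of 8 ubiquitin ligases of Klf proteins 2 fell and 1 rose, against 30.5% of all genes changed. Siah1a had 121 ± 14.5 in the knockout and 203 ± 4.25 in the wild type (log2 change -0.75, limma adjusted p = 0.00859). Wwp1, a ligase for Klf2 and Klf5, had 476 ± 86.5 in the knockout and 748 ± 69.97 in the wild type (log2 change -0.66, limma adjusted p = 0.0179), and Smurf1 had 510.2 ± 77.1 in the knockout and 355 ± 51.3 in the wild type (log2 change 0.52, limma adjusted p = 0.0442). Siah1a alone of these stayed called without any 1 library. Wwp1 missed the threshold when wild type 1 or wild type 2 was omitted (limma adjusted p up to 0.0765). Smurf1 missed it on omission of knockout 1, knockout 3, wild type 1 or wild type 2 (limma adjusted p up to 0.151).

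Several genes that are known from other work as downstream of these factors changed, not all in 1 direction. Of 8 amino acid catabolism genes linked to Klf15 in liver and muscle 7 could be tested, 4 fell and 1 rose. Over all genes tested 15.4% fell and 15% rose. Gpt2, an alanine aminotransferase, had 47.2, 115 and 89.7 normalized reads in the knockout, against 319, 414 and 316 in the wild type (log2 change -2.13, SE 0.31, limma adjusted p = 0.0034). Prodh, the proline dehydrogenase gene, had 88.8 ± 19.4 in the knockout and 201 ± 57.3 in the wild type (log2 change -1.15, limma adjusted p = 0.0145), and Tat, the tyrosine aminotransferase gene and a known glucocorticoid target in liver, had 1200.5 ± 536 in the knockout and 453 ± 145 in the wild type (log2 change 1.35, limma adjusted p = 0.0351). Of these 3 only Gpt2 stayed called without any 1 library. The number lowered was 2 when knockout 1 or knockout 3 was omitted and 1 when wild type 1 or wild type 2 was, and Tat kept its call only on omission of knockout 2 (limma adjusted p = 0.0528 with the library labelled wild type replicate 3 omitted). Of 9 cell cycle genes linked to Klf4 and Klf5 3 rose and 0 fell, against 15% of all genes raised and 15.4% lowered. The median log2 change of these 9 was 0.98. Birc5 had 526 ± 145 in the knockout and 239 ± 94.5 in the wild type (log2 change 1.19, limma adjusted p = 0.0285), the inhibitor gene Cdkn1c had 100.2 ± 25.8 in the knockout and 49.7 ± 14.7 in the wild type (log2 change 1.01, limma adjusted p = 0.0292), and the cyclin gene Ccnb1 had 533 ± 137 in the knockout and 266 ± 109 in the wild type (log2 change 1.07, limma adjusted p = 0.0466). On omission of any 1 library the number raised was at most 2, with 0 for wild type 1 and 1 for wild type 2, and 1 fell when knockout 1 was omitted. Cdkn1c lost its call on omission of knockout 2, wild type 1 or the library labelled wild type replicate 3 (limma adjusted p = 0.0772 for this last one). Birc5 lost it on omission of knockout 1, knockout 3, wild type 1 or wild type 2, and Ccnb1 on omission of any library other than the one labelled wild type replicate 3.

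Of 8 epithelial differentiation genes linked to Klf4 7 could be tested, 3 rose and 2 fell. Over all genes tested 15% rose and 15.4% fell. All of the changed genes other than Lama3 (Krt20, Vil1, Cdx1 and Cdx2) were also counted among the epithelial markers above. Lama3, a laminin chain gene, had 3006, 1403 and 2143 normalized reads in the knockout, against 289, 507 and 539 in the wild type (log2 change 2.28, SE 0.32, limma adjusted p = 0.00299). The keratin gene Krt20 had 31958 ± 2914 in the knockout and 16247 ± 2804 in the wild type (log2 change 0.99, limma adjusted p = 0.0074), and the villin gene Vil1 had 15195 ± 1038 in the knockout and 10075 ± 490.5 in the wild type (log2 change 0.59, limma adjusted p = 0.0134). The genes that fell were the homeobox genes Cdx1 and Cdx2, of which Cdx2 missed the threshold when knockout 3 was omitted and both did when wild type 1 or wild type 2 was. Vil1 too missed it when wild type 1 or wild type 2 was omitted (limma adjusted p up to 0.0671). Klf2, Klf4 and Klf6 are often counted with the immediate early genes, a class that tissue dissociation also induces. Of 20 such genes 13 fell and 1 rose, against 15.4% of all genes lowered and 15% raised. Their median log2 change was -0.92. Egr2 had 142 ± 23.2 in the knockout and 579 ± 58.3 in the wild type (log2 change -2.03, limma adjusted p = 0.000445), Fosb had 3827 ± 560.4 in the knockout and 17798 ± 3447 in the wild type (log2 change -2.21, limma adjusted p = 0.000562), and Fosl1 had 273 ± 87.8 in the knockout and 872 ± 41.1 in the wild type (log2 change -1.73, limma adjusted p = 0.00235). These 3 stayed called without any 1 library. So did Ier3, the gene that rose, with 1037 ± 325 in the knockout and 322 ± 44.6 in the wild type (log2 change 1.65, limma adjusted p = 0.00286). Klf10, described above as induced early by TGF-beta, had a log2 change of 0.02 (limma adjusted p = 0.957). The part of dissociation in the falls of Klf2, Klf4 and Klf6 was not tested.

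**Figure D5:**
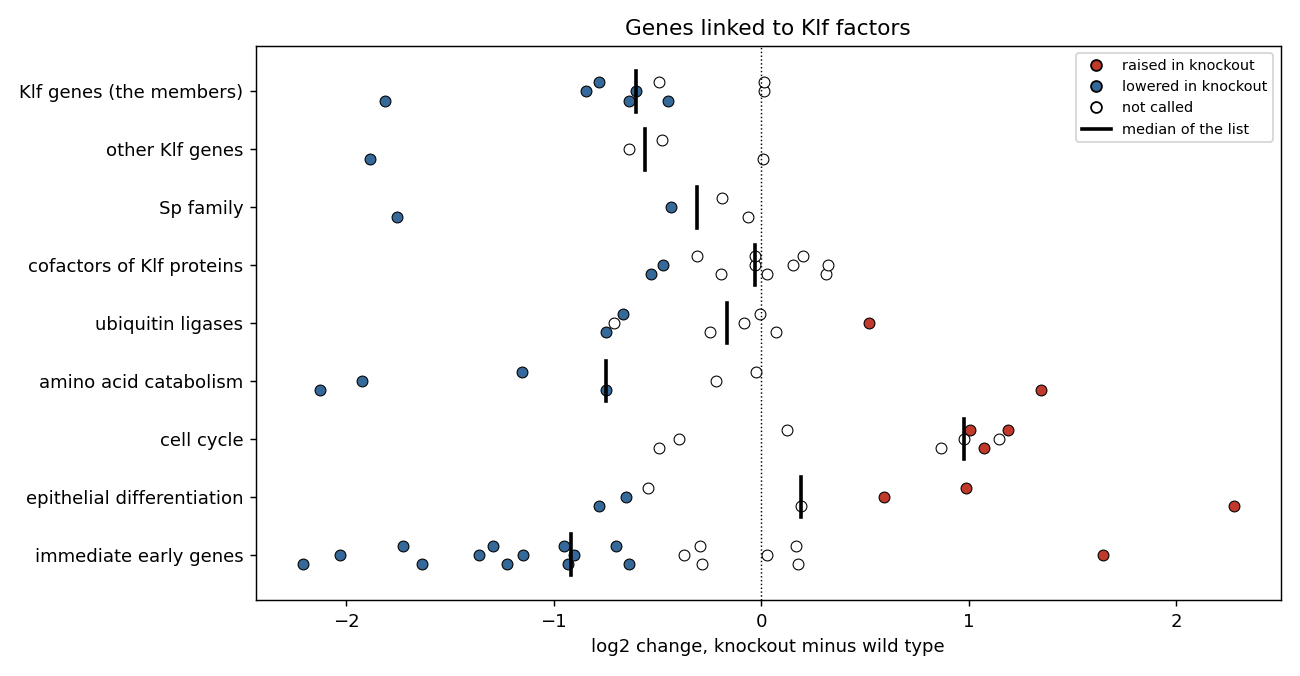
Log2 change, knockout minus wild type, of every tested gene in the Klf set and in 8 related lists, coloured by call, with the median of each list as a bar. The Klf genes and the immediate early genes lie mostly below 0, with medians of -0.61 and -0.92, and the cell cycle genes mostly above it, with a median of 0.98.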

How the data were processed

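RNA of 6 libraries, 3 knockout and 3 wild type, was sequenced from non-stranded TruSeq mRNA libraries, per the labels' protocols. Values are a normalized signal, as deposited by the authors: the name of the table calls them normalized DESeq2 counts, and the values of each library are whole numbers times a single step. FastQC, TopHat, DESeq2 and mm10 are named without versions or roles, per the submitters' processing notes. The read counter is not given in the sources used here. Dividing by that step gave whole reads (within 0.001) for 100% of values, with 10089313 to 12030844 per library. All 6 columns matched a sample title. Of 23725 Entrez numbers 23666 matched a symbol in RefSeq GRCm38.p6, the assembly behind mm10.

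The test was limma 3.58.1 (R 4.3.3) on log2(value + 1) with a trended prior, for genes at 10 or more in at least 3 libraries, with Benjamini-Hochberg adjustment over all 12837 tested. The Klf genes, the 8 related lists and the 5 marker lists were chosen with earlier results of these data known. Named genes are the members, Nr3c1, the 3 with the smallest p of each related list and the 5 most like the member with the largest fall; no member rose. Cdx1, Cdx2, Ptprc, Cd52, Cd3d, Cd3e, Cd79b, S100a8, S100a9, Lyz2, Adgre1, Cd68, Ier3 and the endothelial markers were named after their values were seen. Alternatives changed the pseudocount (0.5, 5), the filter (none, 50), the scaling (TMM, upper quartile, quantile), the prior (robust), the weights (per library), the covariates (marker level) or the libraries (each omitted in turn). The recovered reads were also tested with edgeR 4.0.16, which called 3893 genes, and with DESeq2 1.42.0, which called 4164. The scripts were tested on simulated data. Replicates differed beyond sampling noise (chi-square per degree of freedom 14.2 to 53.9), and replicate numbers, given in accession order, pair nothing. Promoter sequences are from RefSeq, GRCm38.p6, and exon lengths from GENCODE M21.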

Additional observations from a re-analysis of the deposited data

How the results depend on the processing

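No paired analysis was possible because the replicate numbers were given in accession order and pair no libraries. Klf2, Klf4 and Klf13 kept their direction and their call under every alternative other than the marker covariate. With that covariate 6 genes in all rose and 17 fell, 0 Klf genes fell, and every related list had 0 raised and 0 lowered. The log2 changes were then -1.11 for Klf2, -0.20 for Klf3, -0.43 for Klf4, -0.60 for Klf6, -0.068 for Klf9 and -0.58 for Klf13, none past the threshold, and -0.85 for Klf7 and -0.028 for Klf10, both of the opposite sign to the values without it. The cause was not tested. Klf5 passed with quantile normalization (-0.57) and with DESeq2 (-0.49), and Klf6 missed the threshold with no filter (-0.61, limma adjusted p = 0.0501). Klf7, near 0, turned negative with TMM (-0.0034), edgeR (-0.037) and DESeq2 (-0.023), and Klf10 with TMM (-0.0033), quantile normalization (-0.064), library weights (-0.12) and edgeR (-0.0030). Corepressors and coactivators had 1 lowered with quantile normalization and 1 raised with library weights, amino acid genes had 2 raised with no filter, and cell cycle genes had 5 raised with DESeq2 and 1 lowered with library weights.

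On omission of each library in turn, 970 to 1782 genes rose and 953 to 1825 fell, and 3 to 7 Klf genes fell. The log2 change ranged from -2.03 to -1.65 for Klf2, -0.55 to -0.33 for Klf3, -0.89 to -0.62 for Klf4, -0.65 to -0.38 for Klf5, -0.74 to -0.52 for Klf6, -0.18 to 0.33 for Klf7, -0.79 to -0.50 for Klf9, -0.12 to 0.20 for Klf10 and -1.02 to -0.68 for Klf13. The difference in the log2 ratio of Klf4 to Klf5 ranged from -0.41 to -0.09. The numbers lowered were 1 to 2 Sp genes, 0 to 1 corepressors and coactivators, 1 to 2 ubiquitin ligases, 1 to 4 amino acid genes, 0 to 1 cell cycle genes, 0 to 3 differentiation genes and 10 to 15 immediate early genes. The numbers raised were 0 to 1 corepressors and coactivators, 0 to 1 ubiquitin ligases, 0 to 1 amino acid genes, 0 to 2 cell cycle genes and 2 to 3 differentiation genes. Depth limits Klf15, with 7 reads in the knockout and 23 in the wild type.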
